A study of Mus musculus with 2 samples.

Results

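Mir22 (ENSMUSG00000065529.1) is 1 of the 2202 microRNA genes counted in small RNA libraries of the mouse left cerebral cortex. It was picked out by its name, and it had been proposed for being abundant and unequal between the animals. Its own-strand reads in these libraries therefore made the choice, and its levels and its ratio between the animals are given as a description without a test. The data come from 2 females, both 10 days old (postnatal day 10), of the strain B6CASTF1/J, first-generation hybrids from a cross of C57BL/6J, a laboratory strain, with CAST/EiJ, which derives from wild mice. They carried no transgene, deletion or treatment that the labels name, and 1 library was made from the total RNA of each. The labels number the females differently but give them the same donor entry. They were taken as separate animals, called animal 1 and animal 2 after the biological replicate numbers, and they form a single group with no second condition.

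MicroRNAs are short RNAs. They are released from hairpins in longer transcripts, first in the nucleus and then in the cytoplasm, and they guide repressor complexes to messenger RNAs. Pairing relies above all on the seed, the bases near the 5′ end. The microRNA miR-22 is conserved among vertebrates and made in many tissues, with high levels in heart and skeletal muscle. Among its known targets are the histone deacetylase gene Hdac4 and the REST corepressor gene Rcor1, and its repression of both has been studied in neurons.

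The hairpin of Mir22 gives a mature microRNA from each arm, and these sequences are shown because the count of the gene sums both arms. They are RefSeq records on build GRCm38.p6, plus strand. The hairpin occupies chr11:75463716-75463810, and the capitals in its line mark the mature sequences, bases 19 to 40 for the 5p arm and bases 57 to 78 for the 3p arm. In the mature sequences the capitals mark the seed, bases 2 to 8.
Mir22 hairpin: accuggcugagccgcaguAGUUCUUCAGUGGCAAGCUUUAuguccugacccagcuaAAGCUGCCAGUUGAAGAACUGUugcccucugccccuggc
miR-22-5p: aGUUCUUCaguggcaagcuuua
miR-22-3p: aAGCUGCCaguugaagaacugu
The arms are 22 bases each and leave 16 bases between them. No other gene in the RefSeq table carries either seed, so Mir22 has no seed family there. Over bases 2 to 7 alone, miR-22-5p shares its letters with 2 microRNAs, miR-6935-3p and miR-7092-3p. Their genes were near the limit of detection: Mir6935 had 11 reads in animal 1 and 6 in animal 2, and Mir7092 had 1 and 0.

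Mir22 lies in an exon of a non-coding host gene, Mir22hg (chromosome 11, 75461539 to 75466676, plus strand, mm10). In the annotated transcript Mir22hg-202 it sits in exon 2 of 3, which runs from 75463693 to 75463857. In Mir22hg-201 it sits in exon 2 of 2, which has the same start and ends at 75464029. The annotation also places that exon in 1 non-coding transcript of the next gene, Tlcd2-203, as exon 2 of 5, so the host is not unique. Both mature sequences were found, letter for letter, in 4 of the annotated GENCODE M21 transcripts, namely Mir22 itself and these 3. The expression of the host transcripts was not measured by these libraries.

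**Figure D1:**
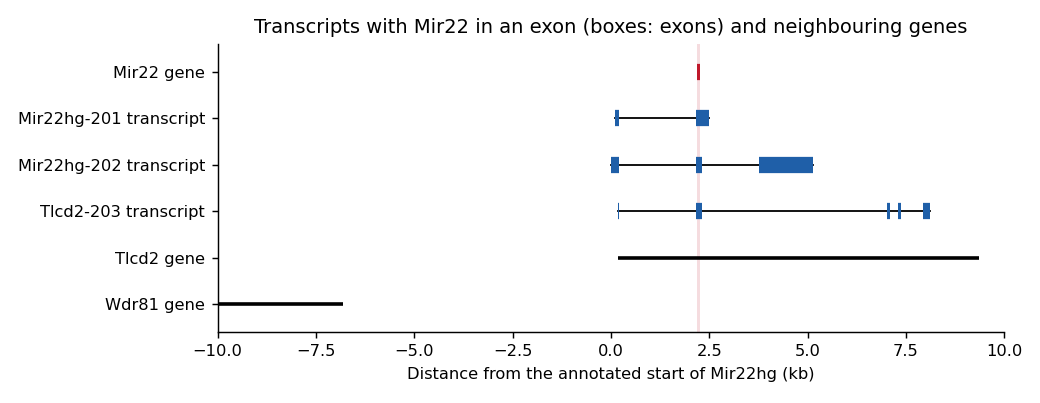
Map of the annotated transcripts that hold Mir22, by distance in kb from the start of Mir22hg; blue boxes are exons, lines join exons, thick black lines are whole genes and red is Mir22. The 3 transcripts that reach it, Mir22hg-201, Mir22hg-202 and Tlcd2-203, all hold it in their exon 2, and the Wdr81 gene is drawn from its near end.

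Mir22 was among the more abundant microRNAs in animal 1 and of middle rank among the well-expressed ones in animal 2. Animal 1 had 55614 reads of Mir22 among 3806078 counted to any microRNA gene, and animal 2 had 7704 among 2602935. Scaled to 1000000 counted reads (CPM), the level was 14612 in animal 1, with a 95% interval of 14492 to 14733. In animal 2 it was 2960, with an interval of 2894 to 3026. The share of counted reads was 1.46% for animal 1 (1.45 to 1.47) and 0.296% for animal 2 (0.289 to 0.303). The intervals are exact Clopper-Pearson intervals and cover counting error only. Over both animals its level was 8786 CPM ± 8239, or 0.879% ± 0.824 (SD, n = 2), so the SD nearly equals the mean.

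After TMM scaling (trimmed mean of M-values, which corrects for a few genes that take many reads), Mir22 was 4.29-fold higher in animal 1 than in animal 2. The log2 ratio was 2.10, with an exact counting interval of 2.07 to 2.14. With 1 library per animal the ratio has no replicate check within an animal. In bulk tissue, more cells that make Mir22 and more Mir22 per cell cannot be told apart. All of its reads lay on its own strand: the unstranded counts were the same, 55614 and 7704, and the opposite strand had 0 reads in either animal, which allows up to 0.788 CPM in animal 1 and 1.15 CPM in animal 2.

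The ratios of the other genes give the background to this value. Of the 531 genes with at least 10 reads over both libraries, 126 (23.7%) were at least 2-fold apart, 97 (18.3%) higher in animal 1 and 29 (5.46%) higher in animal 2. These numbers use ratios alone, with no test, and low counts add to them. Of the 92 genes with at least 1000 CPM in both libraries, 6 (6.52%) were 2-fold apart, 5 (5.43%) higher in animal 1 and 1 (1.09%) higher in animal 2. Mir22 had the highest ratio of those 92, whose log2 ratios ran from -1.82 to 2.10, with a median of -0.22 and an SD of 0.56. Among genes with 1000 CPM in the mean of both libraries, a limit chosen after the data were seen, 102 qualified and Mir22 was the second highest. Mir195a, a member of the mir-15/16 seed family, was above it at 4724 CPM in animal 1 and 580.5 CPM in animal 2.

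Over all 531 genes 22 had a higher log2 ratio than Mir22, and all 22 had a lower mean level. Their mean levels ran from 1.58 to 2652 CPM with a median of 2.53, and 6 of them had 100 or more reads. The spread that edgeR 4.0.16 estimated between the animals, as a biological coefficient of variation, was 34.6% at the abundance of Mir22. That estimate includes Mir22 itself and rests on 2 libraries.

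**Figure D2:**
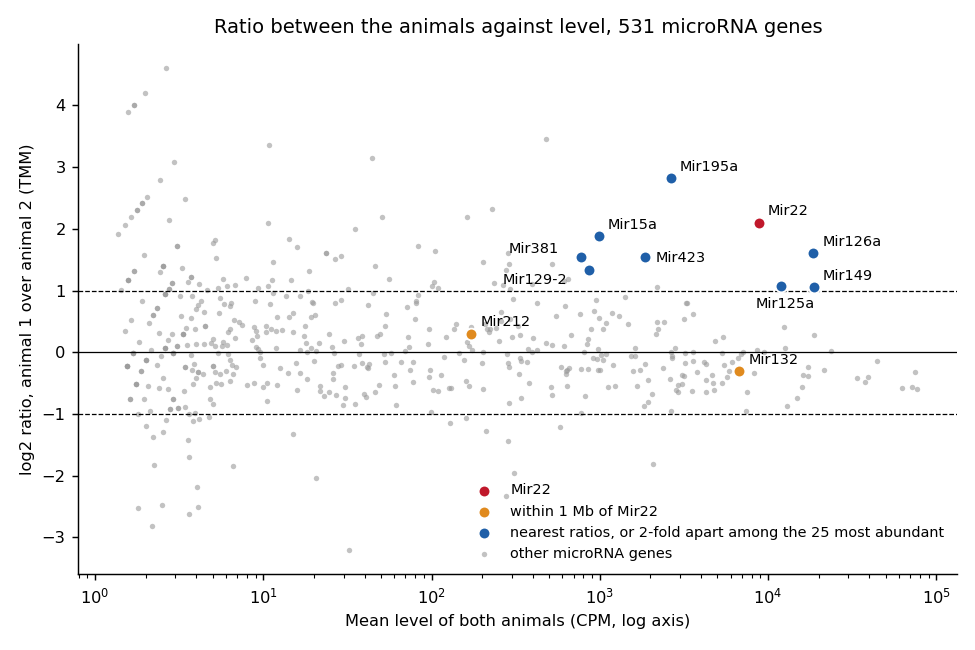
Log2 ratio of animal 1 over animal 2 after TMM scaling (vertical axis) against the mean level of both animals in CPM (log horizontal axis) for the 531 genes with at least 10 reads; each point is a gene and the dashed lines mark 2-fold. Mir22 stands at 2.10 and 8786 CPM, above every other gene to its right, and its neighbours on chromosome 11, Mir132 and Mir212, stand near 0.

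In level terms Mir22 accounted for the third largest gap in favour of animal 1. It lay 11652 CPM higher in animal 1, after Mir126a at 20648 CPM and Mir149 at 15427 CPM, and before Mir125a at 9968 CPM. Of the 25 genes with the highest mean CPM, these 4 genes (16%) were at least 2-fold apart, all higher in animal 1. By that limit 18.3% of all 531 genes were higher in animal 1, and 5.43% of the 92 genes with 1000 CPM in both libraries. Mir22 was chosen for this ratio. It was 24th by mean CPM, a place it owes to animal 1, since it ranked 61st in animal 2. Mir126a, the endothelial microRNA hosted by Egfl7, had 28913 CPM in animal 1 and 8265 CPM in animal 2. Mir149, in an intron of the proteoglycan gene Gpc1, had 26506 CPM in animal 1 and 11079 CPM in animal 2. Mir125a, which lies beside Mirlet7e, had 16964 CPM in animal 1 and 6996 CPM in animal 2. Their log2 ratios were 1.60 for Mir126a, 1.06 for Mir149 and 1.08 for Mir125a, each below the 2.10 of Mir22.

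The order of the levels changed around Mir22. It ranked 19th of the 2202 genes in animal 1 and 61st in animal 2. Of the other genes, 18 lay above it in both animals, 42 lay above it in animal 2 and below it in animal 1, and 0 did the reverse. In animal 1 the genes next above it were Mir652 (16162 CPM), Mir128-1 (15292 CPM) and Mir30d (14997 CPM), and those next below were Mir382 (13903 CPM), Mir298 (13836 CPM) and Mirlet7d (12159 CPM). None of these 6 had a counting interval that overlapped that of Mir22. Mir382, Mir298 and Mirlet7d were all above Mir22 in animal 2, at 17751, 11490 and 17578 CPM, so their order against Mir22 does not hold beyond the spread between the animals. Mir128-1, a neuronal microRNA, has another genomic copy by symbol, so its place is uncertain.

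In animal 2 the genes next above Mir22 were Mir383 (3173 CPM), Mir140 (3138 CPM) and Mir341 (2989 CPM), and those next below were Mir1983 (2806 CPM), Mir328 (2581 CPM) and Mir337 (2577 CPM). The interval of Mir341, 2923 to 3056 CPM, overlapped that of Mir22, so these 2 genes did not differ beyond counting error. In animal 1 all 6 lay below Mir22, at 1024 CPM for Mir140 to 4579 CPM for Mir328. Mir140, known from cartilage and hosted by Wwp2, differed the opposite way to Mir22, with a log2 ratio of -1.82.

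**Figure D3:**
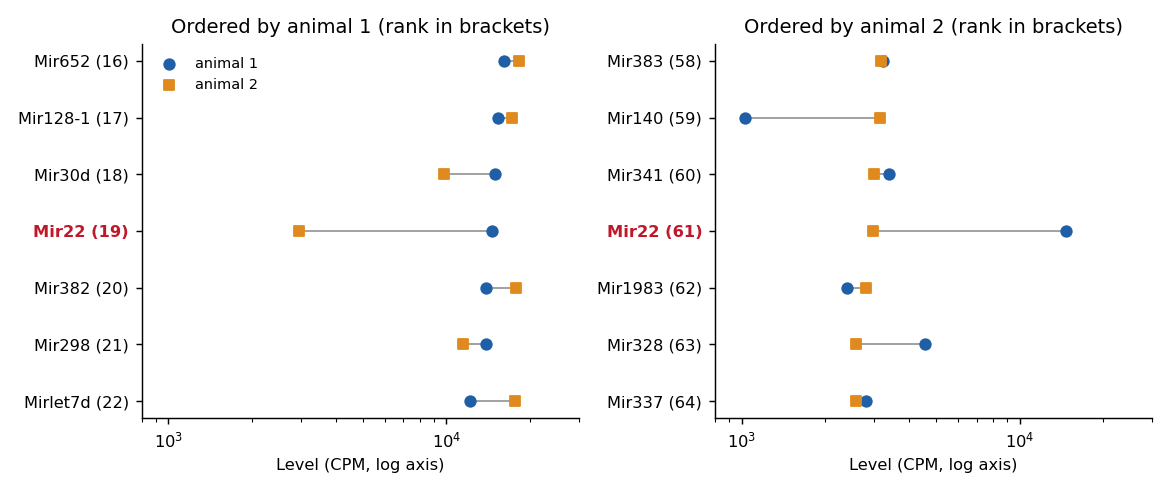
Levels in CPM (log axis) of Mir22 and of the 3 genes next above and next below it, ordered by animal 1 on the left and by animal 2 on the right; circles are animal 1, squares are animal 2, and ranks are in brackets. The line that joins the animals is longest for Mir22, which stands at 14612 CPM in animal 1 and 2960 CPM in animal 2.

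The 2 tested genes within 1 Mb of Mir22 were less than 2-fold apart. Within 1 Mb lie 5 other microRNA genes, of which 2 passed the count filter, Mir132 and Mir212. These are neuronal microRNAs made from a shared transcript whose transcription follows activity, and they end 289968 and 290237 bases before Mir22. Their 3p sequences share a seed that is not that of miR-22, with the seed again in capitals.
miR-132-3p: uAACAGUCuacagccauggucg
miR-212-3p: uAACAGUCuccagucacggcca
Mir132 had 6522 CPM in animal 1 and 6973 CPM in animal 2, a log2 ratio of -0.30 (counting interval -0.33 to -0.27). Mir212 had 202.6 CPM in animal 1 and 142.5 CPM in animal 2, a log2 ratio of 0.30 (0.12 to 0.49). Neither was 2-fold apart, and their directions were opposite. The other genes of the window were low: Mir6926 had 4 reads in animal 1 and 1 in animal 2, and Gm47300 and Mir3971 had 0 in both.

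On chromosome 11 as a whole, 41 of 137 listed genes passed the count filter. Of these, 11 (26.8%, beside 18.3% of all genes) exceeded 2-fold in favour of animal 1, Mir22 among them, and 4 (9.76%, beside 5.46%) in favour of animal 2. The other 3 genes of the chromosome with 1000 CPM in both libraries were Mir744 (log2 ratio -0.42), Mir324 (0.00) and Mir132. All 3 differed by less than 2-fold. That limit leaves out 3 genes of the chromosome that reached 1000 CPM in animal 1 alone, and Mir21a, which reached it in animal 2 alone. Mir195a (70235042 to 70235135) had 4724 CPM in animal 1 and 580.5 CPM in animal 2, a log2 ratio of 2.82. Mir423 (77078064 to 77078172), in an intron of Nsrp1, had 2856 CPM in animal 1 and 847 CPM in animal 2, a log2 ratio of 1.55. Both were over 2-fold higher in animal 1, as Mir22 was. Mir497 (log2 ratio 0.38) and Mir21a (-0.57) were less than 2-fold apart.

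Genes in exons of non-coding hosts, the position of Mir22, had a wide range of ratios. The annotation puts 149 genes, Mir22 included, at least in part in such an exon on the same strand, and 63 of them passed the count filter. Their median log2 ratio was -0.01, beside 0.05 for all 531 genes. Of the 63, 9 (14.3%, beside 18.3% of all genes) exceeded 2-fold in favour of animal 1, Mir22 among them. In favour of animal 2 there were 0 (0%, beside 5.46% of all genes). At 1000 CPM or more in both libraries there were 19, with a median of -0.31, and Mir22 was the 1 gene of them (5.26%, beside 6.52% of all genes at that level) that was 2-fold apart. Mir22 was chosen for this ratio and is counted in the shares of 14.3% and 5.26%, so neither is read as a trait of the class. The 0 in favour of animal 2 was not tested. The class holds some of the most abundant microRNAs of the tissue. Mirlet7b, of the let-7 family that rises as the brain matures, had 66931 CPM in animal 1 and 87822 CPM in animal 2. Mirlet7i had 62874 CPM in animal 1 and 80618 CPM in animal 2. Both were lower in animal 1, by less than 2-fold. Mir770, in an exon of the imprinted Meg3, had 36751 CPM in animal 1 and 41938 CPM in animal 2, and Mir30d, of the mir-30 family, had 14997 CPM in animal 1 and 9813 CPM in animal 2.

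A few members of the class had ratios above that of Mir22 or came next below it, all with far fewer reads. Above it were Mir219a-1 (77 reads in animal 1 and 4 in animal 2) and Mir1247 (15 reads in animal 1 and 0 in animal 2). Mir219a-1 has another copy by symbol. Mir214, in an exon of Dnm3os, was also above it, with 1044 reads in animal 1 and 135 in animal 2. Its log2 ratio was 2.20 (counting interval 1.94 to 2.47), and that interval holds the 2.10 of Mir22. Mir16-1, in Dleu2, had 1654 reads in animal 1 and 362 in animal 2, a log2 ratio of 1.44. It has another copy by symbol, so its level is uncertain. Mir3068, in Gm29362, had 155 reads in animal 1 and 32 in animal 2, a log2 ratio of 1.51. These 5 were named after their values were seen.

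**Figure D4:**
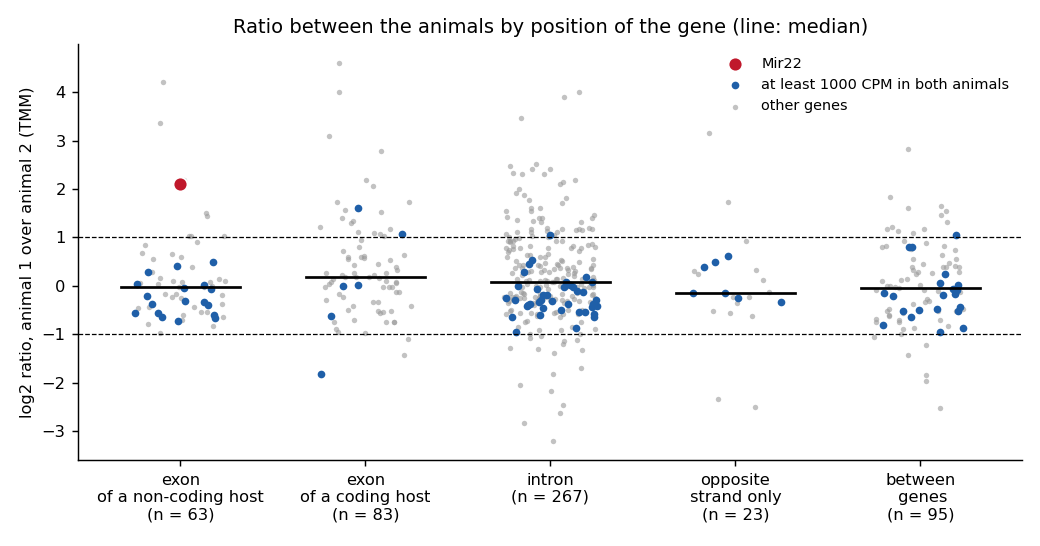
Log2 ratio of animal 1 over animal 2 by position of the gene in the annotation; each point is a gene with at least 10 reads, blue points have at least 1000 CPM in both animals, black lines are medians and dashed lines mark 2-fold. Mir22 stands at 2.10 in the class of exons of non-coding hosts, where the other blue points lie within 2-fold.

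Likeness to Mir22 was measured as the absolute difference of log2 ratios among genes with at least 1000 CPM in animal 1, over the 2 libraries. That limit favours genes that are higher in animal 1, and the ratio is the one Mir22 was chosen for, so the list is a description only. The 6 nearest genes were Mir15a (difference 0.22), Mir126a (0.50), Mir423 (0.55), Mir381 (0.55), Mir195a (0.72) and Mir129-2 (0.76). Mir15a, from the Dleu2 locus, had 1595 CPM in animal 1 and 376.5 CPM in animal 2. Mir381, of the imprinted Dlk1-Dio3 region, had 1193 CPM in animal 1 and 355 CPM in animal 2. Mir129-2, a neuronal gene with another copy by symbol, had 1291 CPM in animal 1 and 443 CPM in animal 2. All but Mir126a had under 1000 CPM in animal 2, and each pattern rests on 1 value per animal.

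Marker genes of the cell types of the tissue were set beside Mir22, since some differed between the animals. The endothelial list has 2 genes, of which Mir126b is at 0 reads in both animals. Its summed level was 28913 CPM in animal 1 and 8265 CPM in animal 2, a log2 ratio of 1.60. The mesenchymal list of 4 genes summed to 277.7 CPM in animal 1 and 53.8 CPM in animal 2, a log2 ratio of 2.16. Nearly all of that was Mir214. Mir199a-1 is at 0 in both animals, and Mir199a-2 had 5 reads in animal 1 and 0 in animal 2. These genes have another copy by symbol, so their levels may be too low. Mir199b had 8 reads in animal 1 and 5 in animal 2. The erythroid list of 4 genes summed to 79.6 CPM in animal 1 and 48.0 CPM in animal 2. Of it, Mir451a (27.9 CPM in animal 1 and 9.61 CPM in animal 2) and Mir144 (21.3 CPM in animal 1 and 8.07 CPM in animal 2) were 2-fold apart, and Mir486 and Mir3107 were not. The log2 ratio of the erythroid sum was 0.52, while Mir486 (-0.20) and Mir3107 (-0.22), and the mesenchymal Mir199b (-0.12), had ratios slightly below 0. The summed levels of these 3 lists were thus higher in animal 1, as Mir22 was, though not every member was. Their part in the ratio of Mir22 was not tested.

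The summed CPM of each of the other lists was lower in animal 1, apart from that of the neuronal genes, which was nearly equal, and single members differed. Smooth muscle and pericyte genes summed to 3145 CPM in animal 1 and 4524 CPM in animal 2, with Mir145a at 141.1 CPM in animal 1 and 476.8 CPM in animal 2. The 6 blood and microglial genes, led by Mir150 and Mir146, summed to 1595 CPM in animal 1 and 1948 CPM in animal 2, and none was at 0. Oligodendrocyte genes, led by Mir219a-2 and Mir338, summed to 1187 CPM in animal 1 and 1642 CPM in animal 2, and their Mir3065 had 0 reads in animal 1 and 4 in animal 2. Their Mir219a-1 went the other way, with a log2 ratio of 3.36 (counting interval 2.10 to 5.43) on the few reads given above, and it has another copy by symbol. Choroid plexus and ciliated cell genes summed to 1107 CPM in animal 1 and 1502 CPM in animal 2. Of the 5 that passed the count filter, 4 were at least 2-fold higher in animal 2, and the median log2 ratio was -2.335. These were Mir34c, Mir449a, Mir34b and Mir211. Mir34b (5 reads in animal 1 and 18 in animal 2) and Mir211 (4 and 16) rest on few reads. The ciliated cell gene Mir34c had 102.7 CPM in animal 1 and 450.6 CPM in animal 2. Mir204, of the choroid plexus, had 865 CPM in animal 1 and 751.5 CPM in animal 2, a log2 ratio of 0.00.

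Of the 15 neuronal genes 13 passed the count filter, and their sum was 42758 CPM in animal 1 and 42477 CPM in animal 2. After TMM scaling the log2 ratio of that sum was -0.19 (counting interval -0.20 to -0.18), slightly lower in animal 1. Mir128-1, Mir137 and Mir132 led the sum, and of the 13 only Mir129-2 was 2-fold apart. Among the 15 genes 11 have other copies by symbol, Mir124a-1, Mir124a-2 and Mir124a-3 included, so their levels may be too low. Mir22 is known for high levels in striated muscle, so muscle genes were listed too. The 8 of them summed to 47.3 CPM in animal 1 and 55.7 CPM in animal 2, with Mir206 highest. The defining genes Mir1a-1, Mir133a-2 and Mir133b are at 0 in both animals. The 2 of the 8 with other copies by symbol are Mir1a-1 and Mir133a-2, so their levels may be too low.

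**Figure D5:**
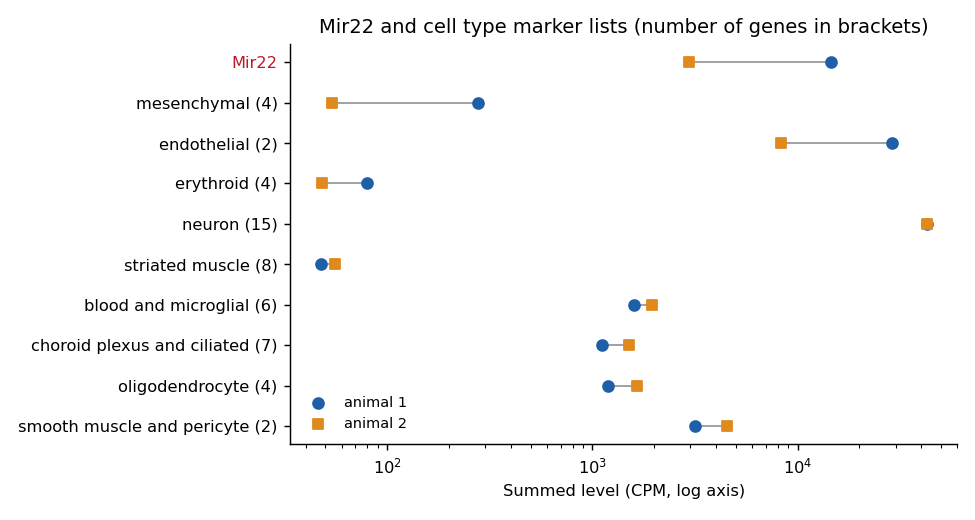
Level of Mir22 and summed levels of 9 marker lists in CPM (log axis); circles are animal 1, squares are animal 2, and the number of genes per list is in brackets. Mir22, the mesenchymal, endothelial and erythroid lists are higher in animal 1, the neuronal sums nearly coincide, and the others are higher in animal 2.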

How the data were processed

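The deposited tables hold raw read counts, 1 table per library, with columns for both strands, the own strand and the opposite strand of each microRNA gene. Per the notes beside the files, the authors used build mm10 and GENCODE M21; the sources used here do not give the aligner and the counter. All 2202 gene IDs were found in M21. The 4 rows that name no gene were left out of library sizes. In animals 1 and 2 they held 66.5% and 69.6% of all reads. Among these rows, reads mapped to several positions made up 42.7% and 40.4% of all reads.

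From the own-strand counts, CPM and percentages were computed over all counted reads. Log2 ratios are animal 1 over animal 2 with 0.5 added to each count, after TMM factors (1.07 and 0.932; edgeR 4.0.16, R 4.3.3) from the 531 genes with at least 10 reads. Exact conditional 95% intervals cover counting error only, and a count of 0 allows up to 3 reads. No p-value was computed, since each animal has 1 library and the group has no counterpart. Genes 2-fold apart are counted by ratio. Copies were taken from numbered symbols. Ratios and intervals were tested on simulated data. Python 3.11.15, numpy 2.4.6, scipy 1.17.1 and pandas 2.3.3 were used; DESeq2 1.42.0 gave alternative size factors.

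The gene, the lists and the marker genes were chosen with earlier results of these data known. Named genes are Mir22, the 3 genes on each side of it by level in each library, microRNA genes within 1 Mb, genes with its seed, the 6 nearest by ratio, those 2-fold apart among the 25 most abundant, the 6 most abundant in exons of non-coding hosts, and up to 3 per marker list with members at or near 0. Alternatives covered the scaling, the count column, the added count, the filter, the denominator, the copy number and leaving out an animal.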

Additional observations from a re-analysis of the deposited data

How the results depend on the processing

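Mir22 was higher in animal 1 under every alternative tried. Its log2 ratio was 2.30 with library totals only, 2.05 with DESeq2 size factors, 2.15 with no filter on low counts, 2.44 scaled to all reads of the table, and 2.02 with the 25 most abundant genes left out of the scaling. Relative to the median of all genes in the same setting it was 2.06, a value that scaling cannot change, 2.03 with no filter and 2.11 with at least 100 counts. Library totals shifted that median to 0.25, against 0.05 with TMM. The mean share of Mir22 ran from 0.296% to 1.46% when replicate 1 or replicate 2 was left out. Its rank was 17 and 55 in animals 1 and 2 in the unstranded column, and 18 and 58 among single-copy genes. The number of genes 2-fold apart was 263 with no filter and 54 with at least 100 counts, where fewer genes enter and Mir22 was 7th of 307. With no filter, 61.6% of these were higher in animal 1, beside 77% at the filter used. The median of Mir132 and Mir212 was 0.21 with library totals, beside 0.00. The class medians here are relative to the median of the genes in the same setting, which was -0.224 for the 92 genes at 1000 CPM. At that level they were -0.076 for introns, 0.075 for opposite-strand genes and 0.039 between genes, beside 0.027, -0.193 and -0.093 at the filter used. For the marker lists, the values here are list medians relative to the median of the genes in the same setting, not ratios of sums. In the unstranded column the erythroid list had 1 gene left, at 1.13, beside 0.44 over 4 genes in the own-strand column. The choroid plexus and ciliated list stood at -2.17 in the unstranded column, beside -2.38. The neuronal list stood at 0.10 over 4 single-copy genes, beside -0.035 over 13 genes. The endothelial list had no gene past the filter in the unstranded column. For these shifts the cause was not tested, beyond the fewer genes entering. Of the list members, Mir126a overlaps Mir126b on the opposite strand, and Mir486 overlaps Mir3107 likewise. Reads called ambiguous were 308707 in animal 1 and 158999 in animal 2 in the unstranded column, beside 0 in the own-strand column. No paired analysis was possible because the series has a single group.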

Other observations

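Base composition was compared as a description. The hairpin gene of Mir22 has 55.8% G and C. Genes at least 2-fold higher in animal 1 had a median of 56.4% (97 genes), genes less than 2-fold apart 52.5% (405 genes), and genes at least 2-fold higher in animal 2 a median of 48.7% (29 genes). These groups also differed in depth, with medians of 64, 288 and 23 reads over both libraries in that order. At 1000 CPM or more in both libraries, 46 genes lay within 5 percentage points of the G and C content of Mir22, itself included. Of these, 2 (4.35%, beside 5.43% of all 92 genes at that level) exceeded 2-fold in favour of animal 1. Mir22, chosen for this ratio, is 1 of the 2. In favour of animal 2 there was 1 (2.17%, beside 1.09%), and the median log2 ratio was -0.24.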
